A study of Mus musculus with 6 samples.

Results

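The hepatocyte is a polarized cell whose blood-facing (basolateral) membrane takes up organic anions such as bile acids, bilirubin, hormone conjugates and drugs, and whose canalicular membrane exports conjugates, phospholipid and cholesterol into bile. Uptake is carried out by organic anion transporting polypeptides of the Slco1 family, and export by ATP-driven pumps of the Abcb, Abcc and Abcg families. Some Abcc pumps lie on the basolateral membrane and return conjugates to the blood. In mouse liver several of these genes are known to differ between the sexes and to respond to growth hormone, xenobiotics, bile acids and sterols.

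The mRNA of 10 such transporters was examined, chosen by gene name from the 54532 genes counted, and all 10 were among the 15449 genes with enough counts to test. They were the uptake carriers *Slco1b2*, *Slco1a1* and *Slco1a4*, the canalicular exporters *Abcc2*, *Abcb1a*, *Abcb4*, *Abcg5* and *Abcg8*, and the basolateral exporters *Abcc3* and *Abcc4*. RNA-Seq of whole liver was available for 3 g*Spns1*-cKO and 3 control mice, 1 library per mouse, and addressed which genes change when the lysosomal lysolipid transporter SPNS1 is lost after birth. The g*Spns1*-cKO mice carried *Spns1* fl/fl, with a loxP site on each side of exon 3, together with Rosa26Cre-ERT2, a ubiquitously expressed Cre that tamoxifen activates. Tamoxifen was injected in the postnatal period, so the deletion was in the whole body and not in hepatocytes alone. The methods name *Spns1* fl/fl littermates as controls, whereas the sample labels give their genotype as WT. Whether the controls received tamoxifen, the age at collection of these livers, and their sex were not given in the sources used here. Every liver nonetheless had the transcripts of the Y chromosome and almost none of *Xist*, as in male mice, with values given below.

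The libraries held 30350002 to 35295611 counts. Library scaling factors (TMM, a trimmed-mean scaling computed by edgeR) were 0.834 to 0.873 in control livers and 1.16 to 1.18 in g*Spns1*-cKO livers, so that scaling and genotype moved together. Levels are given in CPM, read counts scaled by the TMM-adjusted library size, and 3 counts corresponded to 0.0763 to 0.119 CPM, covering counting error only. *Spns1* itself was at 40.4 ± 8.98 CPM in control and 22.1 ± 7.40 CPM in g*Spns1*-cKO livers (n = 3 per group, SD), with a log2 fold change of -0.87 and an adjusted p of 0.0300. It did not pass with library size only (-0.43, adjusted p = 0.213), and counts over the whole gene include exons other than the deleted exon 3. Adjusted p-values for single genes come from the quasi-likelihood test of edgeR, corrected by the Benjamini-Hochberg method over the 15449 genes. Of these genes, 41.8% passed an adjusted p of 0.05, with 21.3% higher and 20.5% lower after *Spns1* loss.

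Of the 10 transporters, 7 passed the same test. *Abcc4*, *Slco1a4*, *Abcb1a* and *Abcg5* rose in g*Spns1*-cKO livers, and *Slco1a1*, *Slco1b2* and *Abcb4* fell. *Abcc2*, *Abcc3* and *Abcg8* did not pass. The log2 fold changes ran from -7.11 for *Slco1a1* to 2.95 for *Abcc4*, with a median of 0.22 beside 0.014 for all genes tested. Changes of at least 2-fold were seen in 3 of the higher and 1 of the lower genes, where 17.9% of all genes tested passed at that size. The g*Spns1*-cKO and control livers did not overlap in 6 of the 10 genes, compared with 54.1% of all genes tested. They were higher after *Spns1* loss in 3 (27.1% of all genes) and lower in 3 (26.9% of all genes).

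Among the g*Spns1*-cKO livers, replicate 1 stood apart, with the lowest CPM of its group for *Abcc4*, *Abcb1a*, *Slco1a4* and *Abcg5*. It was also the lowest for *Abcc3*, but there replicate 2 was the liver apart (229, 394 and 276 CPM). Without replicate 1 the log2 fold changes were 3.33 for *Abcc4*, 2.60 for *Abcb1a*, 3.16 for *Slco1a4*, 0.78 for *Abcg5* and -7.37 for *Slco1a1*. The same 7 transporters passed.

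**Figure D1:**
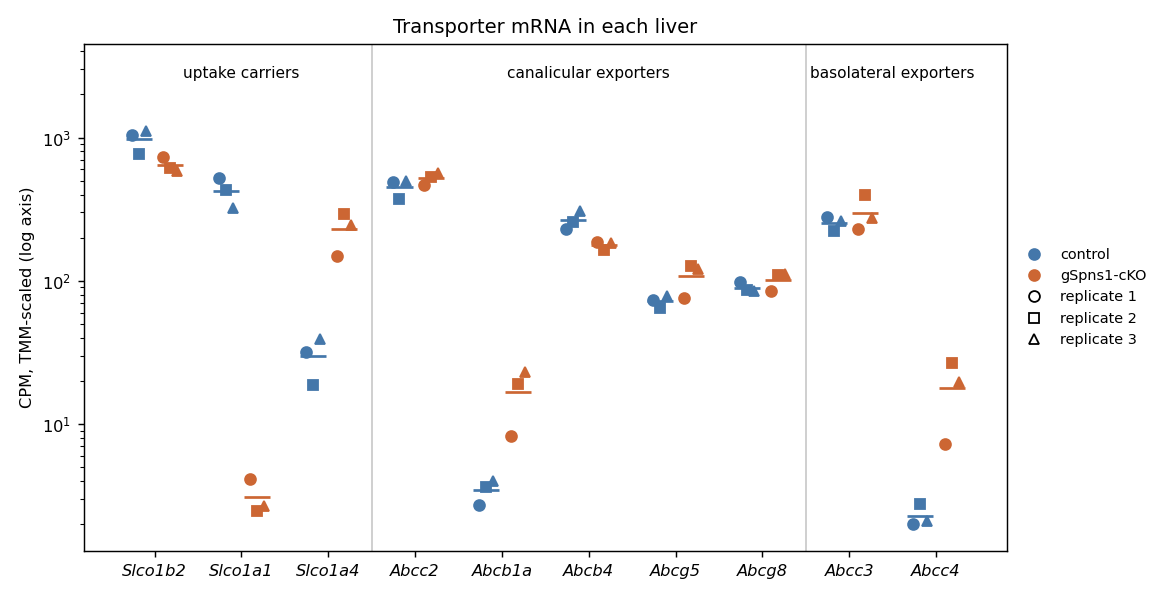
TMM-scaled CPM of the 10 transporters on a log axis, with 1 point per liver (shape gives the replicate number, color the genotype) and a line at each group mean. *Slco1a1* lay between 324 and 526 CPM in control livers and between 2.48 and 4.11 CPM in g*Spns1*-cKO livers, whereas *Slco1a4*, *Abcb1a* and *Abcc4* were higher in all 3 g*Spns1*-cKO livers than in any control liver.

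The uptake carriers showed the widest range of differences. *Slco1a1* (ENSMUSG00000041698, minus strand of chromosome 6, 141907282 to 141946962, GRCm38) encodes a carrier of bile acids and steroid conjugates that is known to be more abundant in male than in female mouse liver. Its counts were 14791, 13161 and 8196 in controls, against 148, 95 and 105 in g*Spns1*-cKO livers. Scaled, these were 526, 427 and 324 CPM against 4.11, 2.48 and 2.67 CPM, so the groups were far apart and each g*Spns1*-cKO liver remained well above the 3-count floor. The transcript was 138-fold lower in g*Spns1*-cKO livers (log2 fold change -7.11 with a standard error of 0.29, and an adjusted p of 1.26e-06 in edgeR's test).

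*Slco1a4* (ENSMUSG00000030237, minus strand, chromosome 6, 141805440 to 141856199), which encodes a carrier of the same subfamily that also takes up digoxin and other neutral drugs, moved the other way. It had 900, 578 and 997 counts in controls, against 5384, 11215 and 9579 in g*Spns1*-cKO livers. These were 32.0, 18.8 and 39.4 CPM against 150, 292 and 244 CPM, with the lowest g*Spns1*-cKO liver, replicate 1, still above the highest control liver. The difference was 7.61-fold (log2 fold change 2.93 with a standard error of 0.37, and an adjusted p of 0.00183 in edgeR's test). *Slco1b2* (ENSMUSG00000030236, plus strand, chromosome 6, 141629518 to 141686646), the liver-specific carrier of bilirubin and bile acids, had 1050, 773 and 1110 CPM in controls, against 734, 608 and 587 CPM in g*Spns1*-cKO livers. The groups were separate, but control replicate 2 lay close to g*Spns1*-cKO replicate 1. Its log2 fold change was -0.60 with a standard error of 0.17 (adjusted p = 0.0186 in edgeR's test), and the adjusted p was 0.0766 without control replicate 3 and 0.0814 without g*Spns1*-cKO replicate 3.

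The genes of these carriers lie in 1 cluster on chromosome 6, and the bases upstream of their starts are shown because the carriers differed in direction. Each line gives the 250 bases before the RefSeq transcription start (GRCm38.p6, 5′ to 3′ on the gene's strand), at chr6:141629268-141629517 (plus strand) for *Slco1b2*, chr6:141946963-141947212 (minus strand) for *Slco1a1* and chr6:141856221-141856470 (minus strand) for *Slco1a4*. Capitals mark matches on either strand to any of 5 motifs, which were the antioxidant response element core TGACNNNGC, the STAT core TTCNNNGAA, the nuclear receptor hexamer AGGTCA, the HNF1 site core GTTAAT and the TATA box TATAAA.
Slco1b2: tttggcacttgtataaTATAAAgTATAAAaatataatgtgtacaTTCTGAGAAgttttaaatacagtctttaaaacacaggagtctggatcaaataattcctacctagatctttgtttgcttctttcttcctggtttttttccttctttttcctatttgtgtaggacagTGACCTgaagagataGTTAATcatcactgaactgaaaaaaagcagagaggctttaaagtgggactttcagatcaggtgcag
Slco1a1: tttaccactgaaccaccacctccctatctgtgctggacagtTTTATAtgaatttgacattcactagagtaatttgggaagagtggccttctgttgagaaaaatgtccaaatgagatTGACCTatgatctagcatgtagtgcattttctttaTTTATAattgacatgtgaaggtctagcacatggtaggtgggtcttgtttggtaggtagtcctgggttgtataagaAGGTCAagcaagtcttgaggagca
Slco1a4: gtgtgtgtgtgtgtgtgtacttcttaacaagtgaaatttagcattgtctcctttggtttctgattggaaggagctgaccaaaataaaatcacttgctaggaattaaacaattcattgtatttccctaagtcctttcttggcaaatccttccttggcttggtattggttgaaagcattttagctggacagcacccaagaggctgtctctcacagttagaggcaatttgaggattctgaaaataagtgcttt

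Upstream of *Slco1b2* there were 2 TATA box matches, 1 STAT core, 1 nuclear receptor hexamer and 1 HNF1 site core. Upstream of *Slco1a1* there were 2 TATA box matches, both in reverse, and 2 nuclear receptor hexamer matches, and *Slco1a4* had no match to the 5 motifs in this window. Over 32851 upstream windows of the same length, 7.02% held a STAT core, 14% a nuclear receptor hexamer, 6.43% an HNF1 site core and 12.4% a TATA box. A match describes the letters only.

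Because levels of different genes can be compared only per length, CPM were divided by the deposited gene length in kilobases. This length can exceed that of the longest transcript, so orders, shares and sums of different genes depend on it. In control livers *Slco1b2* was the most abundant of the 10 transporters, at 198 ± 36.4 CPM per kilobase, followed by *Slco1a1* at 80.7 ± 19.2 (SD, n = 3). In g*Spns1*-cKO livers *Slco1b2* was still the most abundant at 130 ± 16.1 CPM per kilobase, but *Slco1a1* was the least abundant of the 10 at 0.585 ± 0.170. *Slco1a4* went from 4.69 ± 1.63 to 35.6 ± 11.3 CPM per kilobase. As a share of the summed level of the 3 carriers, *Slco1a1* made up 31.5%, 33.6% and 20.9% in controls, against 0.451%, 0.277% and 0.321% in g*Spns1*-cKO livers. The share of *Slco1a4* was 1.57%, 1.22% and 2.10% against 13.5%, 26.9% and 24.1%. The summed level of the 3 carriers was 317, 241 and 293 CPM per kilobase in controls, against 173, 169 and 158 in g*Spns1*-cKO livers, a ratio of the means of 0.588, with no overlap between groups (p = 0.1 in a two-sided exact permutation test, which cannot give less with 3 mice against 3). Shared sequence between the paralogs was small, with 0.867% of the 100-base stretches of the longest *Slco1a1* transcript and 1.1% of those of *Slco1a4* found in each other or in *Slco1a5* (GENCODE M21).

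**Figure D2:**
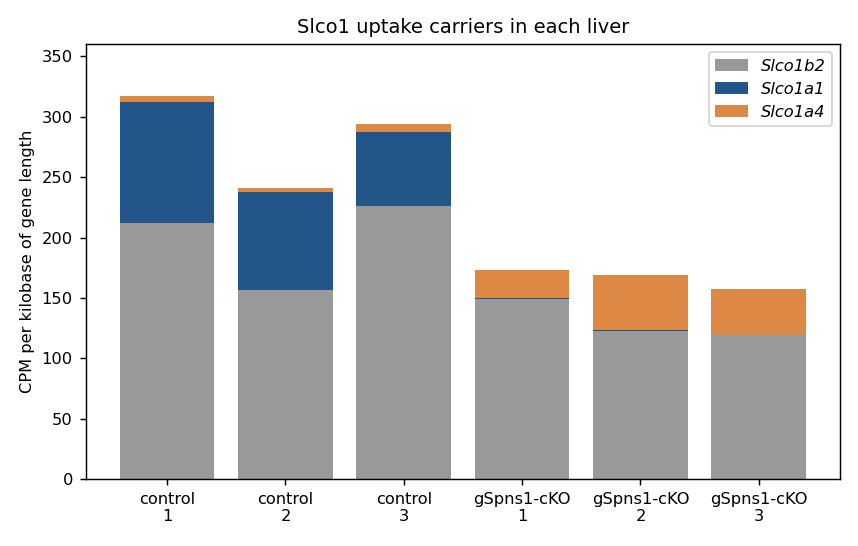
Stacked bars of CPM per kilobase for *Slco1b2*, *Slco1a1* and *Slco1a4*, 1 bar per liver, on a linear axis from 0. The *Slco1a1* segment fills 20.9% to 33.6% of the control bars and at most 0.451% of the g*Spns1*-cKO bars, and the *Slco1a4* segment grows from at most 2.10% to between 13.5% and 26.9%.

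In bulk liver RNA, fewer cells of a type and less RNA per cell cannot be told apart. Marker genes of hepatocytes, as a sum of 8 genes, were at 107000 to 118000 CPM in control livers and 65300 to 76900 CPM in g*Spns1*-cKO livers, and 4 of the 8 fell while none rose. Genes known to differ between male and female mouse liver moved beside *Slco1a1*. Of 9 genes that are known to be higher in males, 6 passed as lower (20.5% of all genes) and none passed as higher. All 9 were lower in every g*Spns1*-cKO liver than in any control liver (26.9% of all genes), with a median log2 fold change of -4.22. *Hsd3b5*, a steroid dehydrogenase of male liver, had 7088, 5249 and 2910 counts in controls, against 6, 2 and 2 in g*Spns1*-cKO livers (log2 fold change -10.93, adjusted p = 3.82e-05 from edgeR's test), the last 2 values lying below the 3-count floor. *Elovl3*, a fatty acid elongase, had 4150, 1777 and 2043 counts against 59, 5 and 4 (-7.29, adjusted p = 0.00766).

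Of 10 genes known to be higher in female liver, 6 could be tested, of which 4 rose and 1 fell. Among all genes tested, 21.3% passed as higher and 20.5% as lower. *Cyp2b9*, a cytochrome P450, had 5, 4 and 22 counts in controls, against 143, 8277 and 7057 in g*Spns1*-cKO livers (log2 fold change 8.47, adjusted p = 0.0386 from edgeR's test). In this gene g*Spns1*-cKO replicate 1 was far below replicates 2 and 3, as it was the lowest of its group in *Slco1a4*. All 6 livers had transcripts of the Y chromosome, with 1731 to 2568 counts of *Ddx3y*, and at most 5 counts of *Xist*, as in male mice. Of the 4 Y-linked genes tested, *Kdm5d* alone passed (log2 fold change 0.47, adjusted p = 0.0149). The part of these gene groups in the *Slco1a1* and *Slco1a4* results was not tested.

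Among the basolateral exporters, *Abcc4* (ENSMUSG00000032849, minus strand, chromosome 14, 118482692 to 118706219) rose and *Abcc3* did not pass. *Abcc4* encodes a pump for bile acids, steroid sulfates and cyclic nucleotides that is known to be scarce in healthy liver. It had 56, 85 and 53 counts in controls, against 259, 1018 and 768 in g*Spns1*-cKO livers, or 1.99, 2.76 and 2.09 CPM against 7.20, 26.5 and 19.5 CPM. All g*Spns1*-cKO livers lay above all control livers, and replicate 1 was much the lowest of the 3. The log2 fold change was 2.95 with a standard error of 0.53 (adjusted p = 0.00767 in edgeR's test), and the adjusted p was 0.0553 with limma-voom. *Abcc3* (ENSMUSG00000020865, minus strand, chromosome 11, 94343295 to 94392997), a pump that returns glucuronides to the blood, had 279, 224 and 260 CPM in controls, against 229, 394 and 276 CPM in g*Spns1*-cKO livers. Replicate 2 alone of the g*Spns1*-cKO livers lay above the control range. Its log2 fold change was 0.24 with a 95% interval from -0.19 to 0.67 (adjusted p = 0.353 from edgeR's test), and it was -0.011 without g*Spns1*-cKO replicate 2. Even after its rise, *Abcc4* was at 2.78 ± 1.53 CPM per kilobase in g*Spns1*-cKO livers beside 52.6 ± 15 for *Abcc3*.

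The 250 bases before the *Abcc4* start are shown because this gene had the largest log2 fold change upward of the 10. They lie at chr14:118706220-118706469 on the minus strand, with capitals as above.
Abcc4: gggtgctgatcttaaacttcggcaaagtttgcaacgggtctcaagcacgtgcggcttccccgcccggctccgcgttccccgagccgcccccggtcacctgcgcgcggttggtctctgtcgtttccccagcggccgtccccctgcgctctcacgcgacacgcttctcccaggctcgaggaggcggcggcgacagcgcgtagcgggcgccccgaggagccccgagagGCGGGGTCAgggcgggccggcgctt

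This window held 1 match to the antioxidant response element core, in reverse, from base -25 to base -17 counted from the start. The window before the other RefSeq start of *Abcc4*, inside the annotated gene, held 1 match to the same core from base -23 to base -15. Matches to it were found in 10.2% of all upstream windows.

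Of the canalicular exporters, *Abcb1a* rose, *Abcb4* fell, and *Abcc2* did not pass. *Abcc2* (ENSMUSG00000025194, plus strand, chromosome 19, 43782192 to 43840740), the pump for bilirubin glucuronides and glutathione conjugates, had 488, 372 and 499 CPM in controls, against 469, 528 and 564 CPM in g*Spns1*-cKO livers. The groups overlapped, and the log2 fold change was 0.20 with a 95% interval from -0.14 to 0.54 (adjusted p = 0.330 from edgeR's test). *Abcb1a* (ENSMUSG00000040584, plus strand, chromosome 5, 8660077 to 8748575) encodes P-glycoprotein, the multidrug efflux pump, which is also made by endothelial cells in other organs. It had 77, 112 and 102 counts in controls, against 296, 732 and 906 in g*Spns1*-cKO livers, or 2.74, 3.64 and 4.03 CPM against 8.23, 19.1 and 23.0 CPM. Again the groups were separate and g*Spns1*-cKO replicate 1 was the lowest of its group. The log2 fold change was 2.28 with a standard error of 0.40 (adjusted p = 0.00510 in edgeR's test). Its close paralog *Abcb1b* had 60, 126 and 37 counts in controls, against 57, 85 and 63 in g*Spns1*-cKO livers, and did not pass (-0.52 on the log2 scale, adjusted p = 0.284). Of the 100-base stretches in the longest *Abcb1a* transcript, 7.72% also occur in transcripts of *Abcb1b* or *Abcb4* (GENCODE M21).

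*Abcb4* (ENSMUSG00000042476, plus strand, chromosome 5, 8893717 to 8959231), which moves phosphatidylcholine into bile, had 231, 257 and 305 CPM in controls, against 188, 165 and 183 CPM in g*Spns1*-cKO livers. No g*Spns1*-cKO liver reached the lowest control liver. The log2 fold change was -0.56 with a standard error of 0.14 (adjusted p = 0.00755 in edgeR's test). *Abcb4* and *Abcb1a* lie close together on chromosome 5 and moved in opposite directions.

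*Abcg5* and *Abcg8* encode the partners of the dimer that secretes cholesterol and plant sterols into bile. *Abcg5* (ENSMUSG00000040505, minus strand, chromosome 17, 84658234 to 84683011) had 73.5, 64.3 and 78.2 CPM in controls, against 75.3, 126 and 121 CPM in g*Spns1*-cKO livers. g*Spns1*-cKO replicate 1 lay within the control range, and the other two were above it. The log2 fold change was 0.58 with a standard error of 0.19 (adjusted p = 0.0332 in edgeR's test), but the adjusted p was between 0.0654 and 0.126 when any 1 of the other 5 libraries was left out. *Abcg8* (ENSMUSG00000024254, plus strand, chromosome 17, 84676302 to 84700333) had 98.6, 86.3 and 84.3 CPM in controls, against 84.6, 109 and 112 CPM in g*Spns1*-cKO livers. Its groups overlapped, and its log2 fold change was 0.18 with a 95% interval from -0.11 to 0.47 (adjusted p = 0.291 from edgeR's test). The annotated genes overlap by 6710 bases on opposite strands, and whether counting used strand was not given in the sources used here, so that the split of reads between them is uncertain.

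These genes have RefSeq starts that lie head to head, and the 109 bases between them are shown because both genes share them as upstream sequence. RefSeq also lists a start of *Abcg8* inside the annotated *Abcg5* gene. The shared bases lie at chr17:84683012-84683120 and are written 5′ to 3′ on the plus strand, toward *Abcg8*, with capitals as above.
Abcg5 to Abcg8: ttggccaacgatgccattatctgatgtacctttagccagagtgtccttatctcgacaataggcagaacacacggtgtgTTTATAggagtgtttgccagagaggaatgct

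This stretch held 1 TATA box match, in reverse for *Abcg8* and so in the forward direction for *Abcg5*, and no match to the other 4 motifs.

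**Figure D3:**
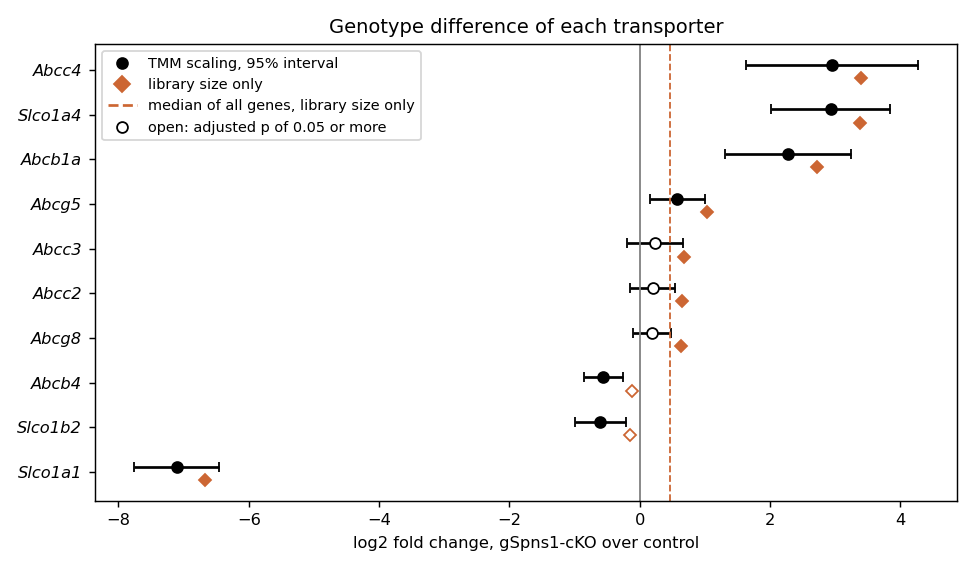
Log2 fold change of g*Spns1*-cKO over control for each transporter, with TMM scaling (circles with 95% intervals) and with library size only (diamonds), and open symbols at an adjusted p of 0.05 or more. *Slco1a1* stands far to the left at -7.11 and *Abcc4* to the right at 2.95, whereas the dashed line shows that library size only moved the median of all genes to 0.46.

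The scaling of libraries bears on the smaller differences. With library size only, the log2 fold changes of all genes had a median of 0.46 instead of 0.014. *Abcc2*, *Abcc3* and *Abcg8* then passed as higher, at 0.65, 0.68 and 0.63, and *Abcb4* and *Slco1b2* no longer passed, at -0.12 and -0.16 (adjusted p = 0.454 and 0.447 from edgeR's test). Relative to the median of all genes in that fit, *Abcb4* was at -0.58 and *Slco1b2* at -0.61, while *Abcc2* was at 0.19, *Abcc3* at 0.23 and *Abcg8* at 0.17. *Slco1a1*, *Slco1a4*, *Abcc4* and *Abcb1a* kept their direction and passed under each scaling tried.

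In length-scaled order, control livers had *Slco1b2*, *Slco1a1*, *Abcc2*, *Abcc3*, *Abcb4*, *Abcg5*, *Abcg8*, *Slco1a4*, *Abcb1a* and *Abcc4*. *Abcc2* and *Abcc3*, at 53.1 ± 8.24 and 44.7 ± 4.96 CPM per kilobase, overlapped in range between livers. Within each control liver *Abcc2* was the higher, with log2 ratios of *Abcc3* to *Abcc2* of -0.22, -0.15 and -0.36. The ranges of *Abcb4*, *Abcg5* and *Abcg8* also overlapped, at 28.2 ± 4.0, 26.6 ± 2.60 and 23.9 ± 2.06. In g*Spns1*-cKO livers *Abcc2* and *Abcc3* came next after *Slco1b2*, at 61.0 ± 5.64 and 52.6 ± 15. They were followed by *Abcg5* at 39.6 ± 10.3 and *Slco1a4* at 35.6 ± 11.3. The ranges of *Abcg5* and *Slco1a4* overlapped, although *Abcg5* was the higher within each g*Spns1*-cKO liver. *Abcb1a* and *Abcc4* overlapped at 3.06 ± 1.40 and 2.78 ± 1.53. The order depends on the length used. *Abcb4* had a deposited length of 9383 bases, but its longest transcript held only 3980 stretches of 100 bases. For *Abcc2* these values were 8532 and 7928. The place of *Abcb4* and the sum of the canalicular exporters are therefore uncertain. The sum of the 5 canalicular exporters was 136, 118 and 143 CPM per kilobase in controls, against 127, 159 and 164 in g*Spns1*-cKO livers (ratio 1.13, exact permutation p = 0.3). That of the 2 basolateral exporters was 49.3, 39.7 and 46.0 against 41.3, 73.4 and 51.5 (ratio 1.23, exact permutation p = 0.4). Both sums overlapped between the groups, in contrast to the sum of the 3 uptake carriers.

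Ratios of 2 transporters within the same liver do not depend on this scaling, and 6 pairs were compared. The log2 ratio of *Slco1a4* to *Slco1a1*, per kilobase, was -4.32, -4.79 and -3.32 in controls, against 4.90, 6.59 and 6.22 in g*Spns1*-cKO livers, so that *Slco1a1* was the higher of the 2 in every control liver and *Slco1a4* in every g*Spns1*-cKO liver. The log2 ratio of *Slco1b2* to *Slco1a1* went from 1.31 ± 0.50 to 7.83 ± 0.23 (SD, n = 3). *Abcc4* over *Abcc2* went from -7.21 ± 0.48 to -4.65 ± 0.87, and *Abcb4* over *Abcb1a* from 5.48 ± 0.13 to 2.76 ± 0.84. These 4 ratios did not overlap between the groups (two-sided exact permutation p = 0.1, 0.15 after Benjamini-Hochberg adjustment over 6 pairs), where 3 mice against 3 cannot go below 0.1. *Abcg8* over *Abcg5* was -0.15 ± 0.18 in control and -0.52 ± 0.20 in g*Spns1*-cKO livers, with overlap (exact permutation p = 0.2, adjusted 0.24). *Abcc3* over *Abcc2* was -0.24 ± 0.10 and -0.25 ± 0.35, a difference below the spread between mice (exact permutation p = 1, adjusted 1).

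**Figure D4:**
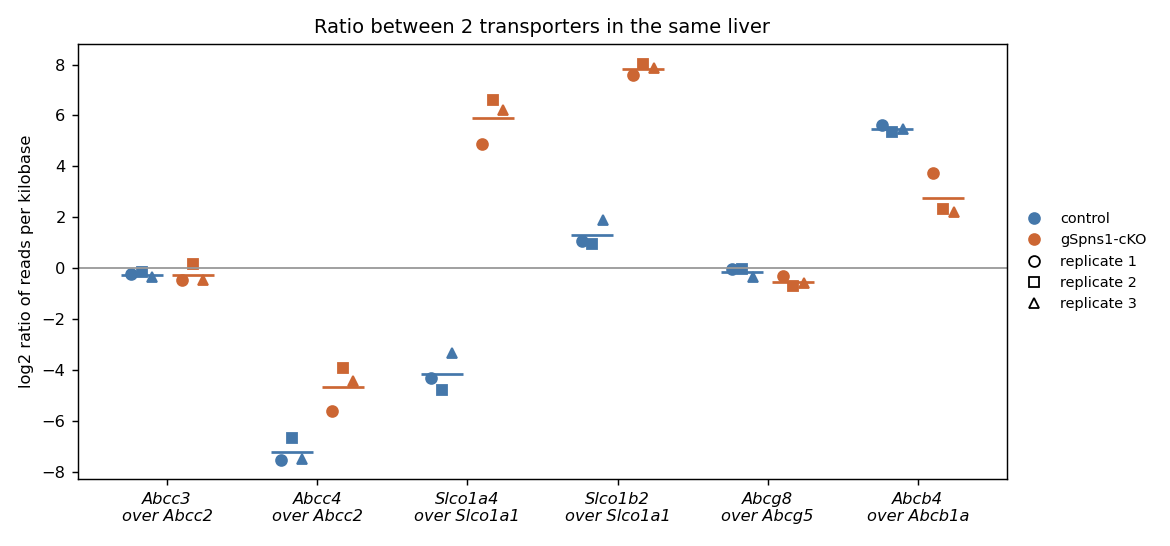
Log2 ratio of reads per kilobase of 2 transporters in the same liver for 6 pairs, with 1 point per liver (shape gives the replicate number, color the genotype) and a line at each group mean. *Slco1a4* over *Slco1a1* lies below 0 in all 3 control livers and above 0 in all 3 g*Spns1*-cKO livers, while the group means of *Abcc3* over *Abcc2* are -0.24 and -0.25.

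Other genes of hepatic transport were taken from a list of 40 transporters and partner proteins, of which 34 could be tested. Of these, 14 fell and 9 rose at an adjusted p under 0.05 (67.6% called, beside 41.8% of all genes), with a median log2 fold change of -0.30, and the count of lower genes was 7 with library size only and 9 without g*Spns1*-cKO replicate 3. *Abcb11*, the bile salt export pump of the canaliculus, had 511, 399 and 510 CPM in controls, against 380, 166 and 232 CPM in g*Spns1*-cKO livers (log2 fold change -0.87, standard error 0.28, adjusted p = 0.0409). Its adjusted p was over 0.05 in 6 of 14 other settings. *Slc10a1*, the sodium-dependent bile acid carrier of the basolateral membrane, was at 591 ± 117 CPM in control and 417 ± 58.7 CPM in g*Spns1*-cKO livers (-0.50, standard error 0.18, adjusted p = 0.0412), and its adjusted p was over 0.05 in 8 of the 14 settings. *Abcg2*, an efflux pump of the canaliculus, did not pass (-0.30, adjusted p = 0.184), and its value was 0.14 with library size only.

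The largest decreases in this list were in organic anion and cation carriers of the Slc22 family. *Slc22a28* had 783, 469 and 391 counts in controls, against 8, 8 and 4 in g*Spns1*-cKO livers (log2 fold change -6.76 with a standard error of 0.37, and an adjusted p of 6.5e-06 in edgeR's test), with all g*Spns1*-cKO livers just above the 3-count floor. *Slc22a7*, an organic anion carrier, had 1141, 1695 and 1333 counts against 109, 5 and 44 (-5.13, adjusted p = 0.0111), and did not pass without g*Spns1*-cKO replicate 3 (-4.98, adjusted p = 0.0643). *Slc22a3*, an organic cation carrier, had 198, 220 and 194 counts against 41, 83 and 61 (-2.17, adjusted p = 0.000109). The groups were separate in each of these genes.

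The largest increases were in *Abcc12*, *Slc51b* and *Abcc5*. *Slc51b*, a subunit of the basolateral bile acid exporter, had 11, 13 and 3 counts in controls, against 54, 81 and 136 in g*Spns1*-cKO livers (log2 fold change 2.88 with a standard error of 0.48, and an adjusted p of 0.00106 in edgeR's test), and its partner *Slc51a* had too few counts to test. *Abcc12*, a relative of the drug efflux pumps, had 9, 12 and 13 counts against 175, 75 and 108 (2.96, adjusted p = 0.000377). *Abcc5*, an exporter of cyclic nucleotides, had 131, 89 and 125 counts against 546, 557 and 724 (1.95, adjusted p = 7.72e-05). All 3 were scarce transcripts in control livers, as *Abcc4* and *Abcb1a* were.

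**Figure D5:**
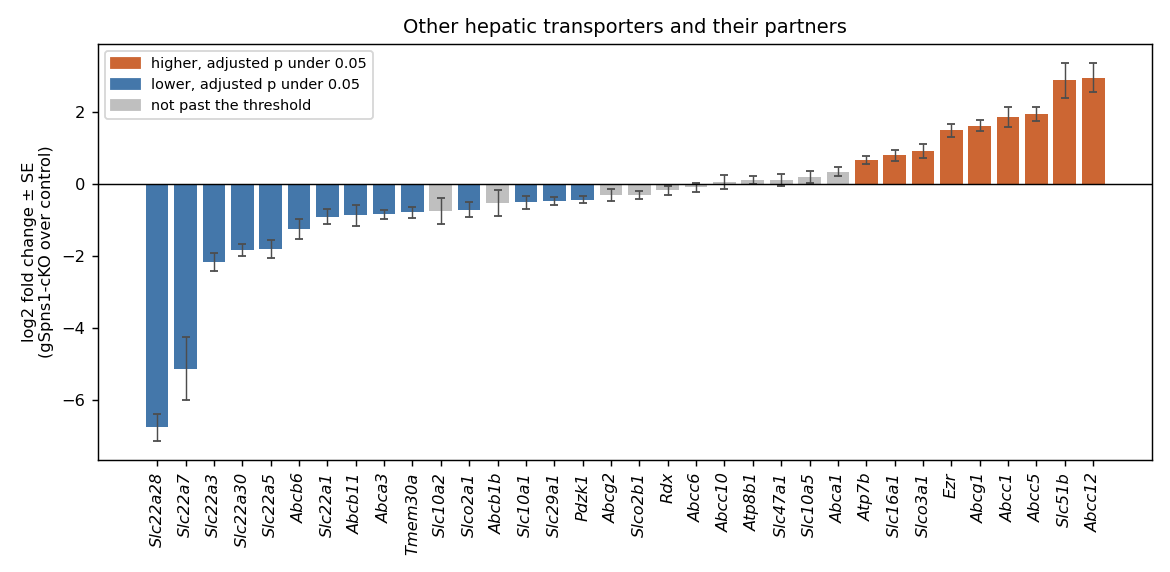
Log2 fold change of g*Spns1*-cKO over control for the 34 tested genes of the transporter list, as bars sorted by value. Whiskers give the standard error, and color separates genes higher or lower at an adjusted p under 0.05 from those not past it. *Slc22a28* at -6.76 and *Slc22a7* at -5.13 lie farthest below 0, and *Abcc12* at 2.96 and *Slc51b* at 2.88 farthest above.

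Markers of other liver cells were higher beside the rise of *Abcc4* and *Abcb1a*. Of all genes tested, 21.3% passed as higher and 20.5% as lower. Of 8 cholangiocyte genes 7 rose, with a summed level of 60.0 to 78.1 CPM in control livers and 188 to 302 CPM in g*Spns1*-cKO livers. Most of this sum was *Spp1*, with means of 44.6 and 195 CPM. *Krt19* and *Epcam*, which also rose, were scarce, with means of 0.885 and 0.735 CPM in controls against 4.36 and 6.37 CPM. Of 8 macrophage genes 7 rose (177 to 290 against 659 to 957 CPM), as did 5 of 6 endothelial genes (137 to 153 against 202 to 249 CPM) and 5 of 6 stellate cell genes (171 to 201 against 432 to 518 CPM). None of the 6 genes of T and B lymphocytes passed the test (2.41 to 3.02 against 3.33 to 5.11 CPM). Of 5 neutrophil genes only *S100a8* and *S100a9* could be tested, and both rose (sum of the 5 at 1.92 to 3.44 against 4.73 to 8.80 CPM). *Ly6g*, *Mpo* and *Camp* had at most 5 counts in any library, and none had a higher mean in g*Spns1*-cKO livers. Of 5 tested erythroid genes 2 rose and 1 fell (132 to 155 against 83.4 to 193 CPM). No marker in these lists was without a count, and their part in the transporter results was not tested.

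Known regulators of these transporters, all transcription factors except *Keap1*, had log2 fold changes from -0.87 to 1.20. Of 17 tested, 5 fell, 3 rose and 9 did not pass (47.1% called, beside 41.8% of all genes), with a median log2 fold change of -0.16, and 4 passed without g*Spns1*-cKO replicate 3. The 5 lower factors were *Rxra*, the partner of many nuclear receptors, at -0.87 (adjusted p = 0.00147 from edgeR's test), the oxysterol receptor *Nr1h3* at -0.61 (adjusted p = 0.00186), the pregnane receptor *Nr1i2* at -0.54 (adjusted p = 0.0206), the fatty acid receptor *Ppara* at -0.51 (adjusted p = 0.00997) and the bile acid receptor *Nr1h4* at -0.29 (adjusted p = 0.0480). With library size only *Rxra* alone of these 5 still passed (-0.42, adjusted p = 0.0379), while *Nr1h3* was at -0.16 (adjusted p = 0.235), *Nr1i2* at -0.09 (adjusted p = 0.646), *Ppara* at -0.07 (adjusted p = 0.670) and *Nr1h4* at 0.16 (adjusted p = 0.223). *Nr1h4* passed in 3 of 14 other settings, and in none that left out 1 library. *Nr1i2* did not pass without control replicate 3 (adjusted p = 0.0739) or g*Spns1*-cKO replicate 3 (adjusted p = 0.0826). *Nr0b2*, a corepressor induced by bile acids, had 585, 370 and 444 counts in controls, against 1733, 1261 and 1372 in g*Spns1*-cKO livers (1.20, adjusted p = 0.00338), and *Foxa2* (0.49, adjusted p = 0.0236) and *Arnt* (0.34, adjusted p = 0.0353) also rose. *Foxa2* and *Arnt* each passed in 10 of 14 other settings, and both missed the threshold without control replicate 2, g*Spns1*-cKO replicate 2 or g*Spns1*-cKO replicate 3, as did *Foxa2* without control replicate 1 and *Arnt* without control replicate 3 (largest adjusted p = 0.0931 for *Foxa2* and 0.139 for *Arnt*).

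Lists of genes known as targets of these factors were counted beside them. Of 8 targets of NRF2, the oxidative stress factor, 3 rose (21.3% of all genes) and none fell (20.5% of all genes). In either direction 37.5% were called, beside 41.8% of all genes. Their median log2 fold change was 0.665. In 4 of them every g*Spns1*-cKO liver was above every control liver (27.1% of all genes). *Slc7a11*, a cystine carrier, had 1, 0 and 0 counts in controls, against 102, 25 and 125 in g*Spns1*-cKO livers, and *Hmox1*, heme oxygenase, had a log2 fold change of 1.90 (adjusted p = 7.56e-06 from edgeR's test). Of 8 targets of the xenobiotic receptors CAR and PXR, 2 rose and 1 fell (37.5% called, beside 41.8% of all genes). The cytochrome P450 *Cyp2b10* had 15, 17 and 33 counts in controls, against 101, 387 and 282 in g*Spns1*-cKO livers (3.09, adjusted p = 0.00494), with replicate 1 the lowest of its group as in *Abcc4* and *Slco1a4*, and the glutathione transferase *Gsta2* was at 2.45 (adjusted p = 0.000173). Of 8 targets of LXR, the oxysterol receptor, 2 rose and 3 fell (62.5% called), among them the sterol exporter *Abcg1* at 1.63 (adjusted p = 2.74e-05) and the phospholipid transfer protein *Pltp* at -2.0 (adjusted p = 0.0111). Of 5 tested targets of FXR, the bile acid receptor, 2 rose and 3 fell, including *Slc51b*, described above, and the hormone *Fgf21* at -1.28 (adjusted p = 0.00774).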

How the data were processed

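RNA of whole liver from 3 g*Spns1*-cKO and 3 control mice was poly-A selected and sequenced. The authors deposited raw counts per gene, and the submitters' processing notes name fastp, HISAT2 2.0.5, featureCounts 1.5.0-p3 and mm10, with no strand setting given in the sources used here. The deposited FPKM columns and the authors' own comparisons (fold changes and p-values) were not used. Replicate numbers name mice, and the main test did not use them. Its p-values set the difference between the groups against the variation between these mice, estimated with information shared across genes.

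Counts of 54532 genes were filtered with filterByExpr, scaled by TMM and fitted with edgeR 4.0.16 (R 4.3.3, glmQLFit with robust estimation and glmQLFTest) with Benjamini-Hochberg adjustment. The fit was also run on simulated counts with few changed genes and the same variability for every gene. In these data 41.8% of genes passed, so that run does not cover their setting. Library totals were 30350002 to 35295611 counts. Ratios within a liver had 0.5 added to each count. Alternatives were other scalings, filters and thresholds, limma-voom (limma 3.58.1), DESeq2 1.42.0, a replicate block and leaving out each library. RefSeq upstream bases matched 9 of the 10 genes, and *Abcc3* was not among them.

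The transporters and the gene lists were chosen with earlier results of these data known. Named were all 10 transporters, of the other transporters *Abcb11*, *Slc10a1*, *Abcg2*, *Abcb1b* and the 3 largest changes past the threshold in each direction, the regulators past it, and the 2 largest of each target list, except 1 gene that is not reported here. A gene in several lists counts in each.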

Additional observations from a re-analysis of the deposited data

How the results depend on the processing

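Of 140 values of the 10 transporters under 14 other settings, 126 kept their direction and side of the threshold, 10 no longer passed, 3 newly passed and 1 changed sign. Leaving out 1 library gave -7.37 to -6.94 for *Slco1a1*, 2.67 to 3.16 for *Slco1a4*, 2.55 to 3.33 for *Abcc4*, 1.98 to 2.60 for *Abcb1a*, -0.67 to -0.46 for *Abcb4* and -0.75 to -0.51 for *Slco1b2* on the log2 scale. With library size only, 7 transporters were higher and 1 lower, the median was 0.67, and 14 other transporters were higher and 7 lower. *Abcg2* (0.14), *Pdzk1* (0.016) and *Nr1h4* (0.16) then changed sign. At 2-fold or more, 1 transporter and 6 other transporters were lower and 1 regulator passed, and at an adjusted p under 0.01 these were 9 other transporters and 4 regulators. Leaving out 1 library left 9 to 14 other transporters lower and 4 to 8 regulators, with 5 regulators without control replicate 2. *Abcc3* ran from -0.011, without g*Spns1*-cKO replicate 2, to 0.395 when 1 library was left out, and the difference in the *Abcc3* to *Abcc2* ratio was -0.002, with -0.205 to 0.1 when 1 library was left out. The causes were not tested.

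Deviations of same-numbered mice from their group means had correlations of 0.037, 0.033 and -0.028, and not every liver correlated best with its own number. With so few mice per group, these values cannot decide whether the numbers pair the mice. With a replicate block 3084 genes were higher and 3016 lower, against 3286 and 3166, and of the 10 transporters 4 were higher and 3 lower, with a median of 0.21. Of the single genes named, *Slc10a1* (adjusted p = 0.0819), *Slc22a7* (-5.33, adjusted p = 0.0593) and *Nr1h4* (adjusted p = 0.0767) did not pass in the block fit, and *Abcg2* passed (-0.30, adjusted p = 0.0477).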
